A study of Mus musculus with 44 samples.

Results

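The recombinase-high lymphomas are the 8 of 43 mouse lymphomas with the highest mean of Rag1, a subunit of the V(D)J recombinase, and Vpreb1, a part of the surrogate light chain. They were compared with the 20 lymphomas in which that mean was lowest; the remaining 15 lay between. The members were chosen by the measured levels of these 2 genes alone: the log2 level of Rag1 and that of Vpreb1 were each centred on the lymphoma mean of their array set, and both centred values were averaged into a score. The series holds 44 arrays, 43 of lymphomas and 1 of a spleen, all from Eµ-myc mice, in which a Myc transgene is driven by the immunoglobulin heavy chain enhancer in B lineage cells. High, low and between lymphomas all carry that transgene, so no lymphoma here is a Myc-free control, and age, sex and treatment of the mice are not given in the sources used here. RNA came from frozen tumour pieces or from pellets of dissociated cells, and the sources used here do not say which applies to which array, nor whether every lymphoma is from a different mouse. The p-values therefore measure the spread between these samples.

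V(D)J recombination assembles the antigen receptor genes of lymphocytes. RAG1 and RAG2 cut the DNA beside the gene segments, end joining proteins seal the breaks, and terminal transferase, encoded by Dntt, adds bases at the joints. A precursor B cell that has made a heavy chain displays it with the surrogate light chain, built of the products of Vpreb1 and Igll1, as the pre-B cell receptor. Mature B cells have shut off these genes and present antigen on MHC class II molecules, whose genes are switched on by the coactivator CIITA.

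The promoters of 2 genes of each programme are shown because the surrogate light chain belongs to the precursor stage and MHC class II to the mature stage; Vpreb1 is 1 of the genes that defined the groups. Each line holds the 120 bases before the RefSeq transcription start in GRCm38.p6, written 5′ to 3′ on the gene's own strand. Capitals mark the E-box CAGGTG or its reverse complement CACCTG, the kind of site bound by E proteins such as the product of Tcf3, and the Y box CTGATTGG of MHC class II promoters.
Vpreb1: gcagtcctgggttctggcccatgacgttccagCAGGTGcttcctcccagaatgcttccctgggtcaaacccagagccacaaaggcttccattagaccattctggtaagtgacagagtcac
Igll1: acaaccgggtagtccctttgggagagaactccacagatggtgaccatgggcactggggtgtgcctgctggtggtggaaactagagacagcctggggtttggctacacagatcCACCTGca
H2-Aa: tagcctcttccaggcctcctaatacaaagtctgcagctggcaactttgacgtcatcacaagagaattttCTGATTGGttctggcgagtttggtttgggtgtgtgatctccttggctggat
H2-Eb1: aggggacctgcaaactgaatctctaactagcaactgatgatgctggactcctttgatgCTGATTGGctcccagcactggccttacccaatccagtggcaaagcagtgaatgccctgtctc
The Vpreb1 stretch is chr16:16869256-16869375 on the minus strand, and that of its neighbour Igll1 is chr16:16863986-16864105 on the minus strand. The H2-Aa stretch is chr17:34287824-34287943 on the minus strand, and the H2-Eb1 stretch is chr17:34305747-34305866 on the plus strand. Searched on both strands over the 250 bases before the start, CAGGTG was present in 3 of the 12 precursor B genes found in the RefSeq table when both genes of the score are counted with the markers (Vpreb1 and Rag1, which defined the groups, and Igll1) and in 17.2% of all 32851 promoters. CTGATTGG was present in 3 of the 6 MHC class II genes found there (H2-Aa, H2-Eb1 and H2-Oa) and in 3.83% of all promoters. A listed gene was counted if any of its promoters matched, whereas the shares of all promoters count each promoter. The 2 measures are therefore not alike. These matches describe letters and not binding.

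Rag1 and Vpreb1 set the groups, so their levels are a description without a test. On the log2 scale, Rag1 read 11.17 in D48, 7.09 in D56, 11.32 in D57, 9.29 in D62, 9.41 in D64, 10.43 in D70, 9.86 in D72 and 12.61 in D161. Vpreb1 read 11.05, 11.03, 10.04, 13.19, 7.98, 7.38, 8.84 and 13.16 in the same order. The 2 genes did not rise in step: D70 was high through Rag1 and D56 mainly through Vpreb1, and D161 was at or near the top for both. Among the low lymphomas, Rag1 lay between 3.65 and 5.69.

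The score ran from 2.11 in D64 to 6.37 in D161 among the 8 high lymphomas and from -2.14 to -0.81 among the 20 low ones. Just outside the high group lay D59, with a score of 1.39 and a Vpreb1 level of 12.20 beside a Rag1 level of 3.75, and D80, with a score of 1.29 from a Rag1 level of 9.45 and a Vpreb1 level of 6.30. Just above the low group lay D53, with a score of -0.71.

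**Figure D1:**
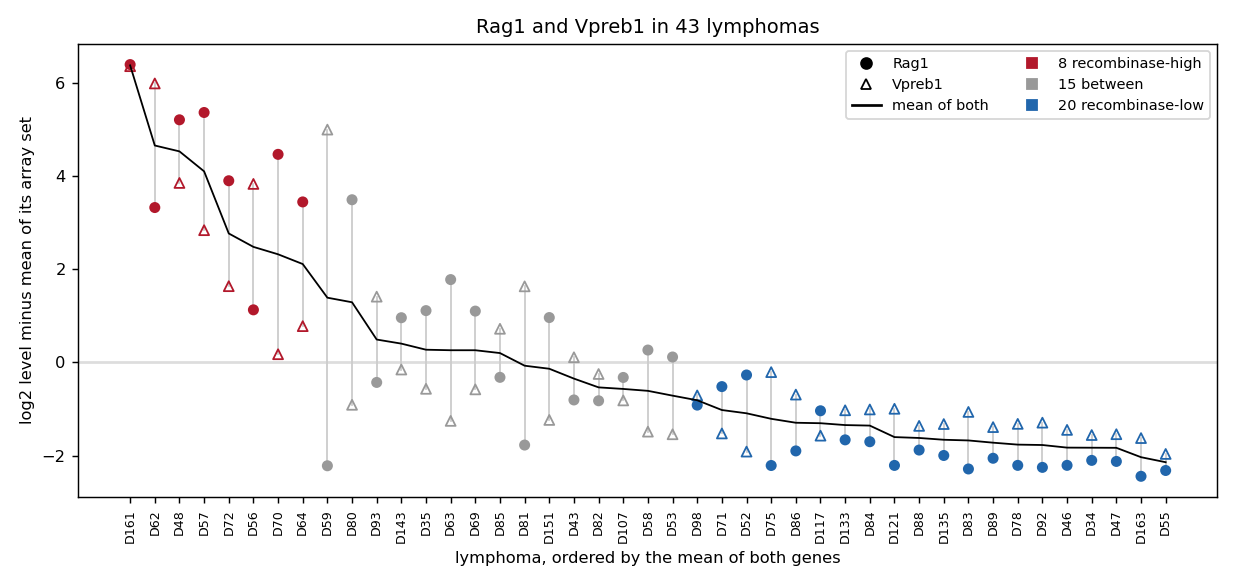
Rag1 (filled circles), Vpreb1 (open triangles) and their mean (line) in 43 lymphomas, as log2 level minus the lymphoma mean of the same array set, ordered by the mean. The 8 recombinase-high lymphomas (red) run from 6.37 to 2.11, and D59 and D80, the first of the 15 between (grey), are high in 1 gene each; the 20 recombinase-low lymphomas (blue) lie below 0.

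The arrays fall into 2 sets that differ in overall level. The 36 lymphomas with title numbers up to that of D117 had array medians of 6.21 to 6.45, and the 7 later lymphomas with the spleen had 6.85 to 6.96. Of the high lymphomas 7 were in the first set and D161 was in the second, and of the low lymphomas 16 and 4. Each gene's difference below is high minus low in log2 units from limma with the array set as a term, with its standard error. Each gene's adjusted p is limma's with Benjamini-Hochberg adjustment over the 7732 genes tested. Levels called centred have the lymphoma mean of their array set subtracted.

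Of the 7732 genes, 483 were higher in the recombinase-high lymphomas (6.25%) and 281 were lower (3.63%) at an adjusted p under 0.05. Of these, 106 were higher (1.37% of all genes tested) and 119 were lower (1.54%) by at least 2-fold. These 764 genes are 9.88% of those tested, and 2065 genes (26.7%) had an unadjusted p under 0.05. The shares of 6.25% and 3.63% stand beside every list count below. In 2 genes every high lymphoma lay above every low one (0.0259%), Rag2 and Dnajc21. Dnajc21, a cochaperone gene outside the naming rule and picked after its values were seen, differed by 0.94 ± 0.14 (adjusted p = 0.000202). In 0 genes did every high lymphoma lie below every low one. The counts leaned on D161: without it 201 genes were higher and 113 lower, against 586 higher without D98 and 378 lower without D71. Without D57 the counts were 265 and 134 and without D48 311 and 153, and without D62 3.62% of genes were higher and 2.17% lower.

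Macrophage markers moved with the comparison, and values against low lymphomas of similar macrophage level are given below for some of the genes. The mean centred level of 16 such genes was -1.56 to -0.10 in the high lymphomas and -0.85 to 2.72 in the low ones, 12 of which exceeded every high lymphoma. When the high lymphomas were set against the 8 low ones within their own macrophage range, 8 genes were higher and 3 lower. The same genes' differences had a median of 0.813 of the full value among those called higher and 0.767 among those called lower. All kept their sign, in 16 lymphomas that were part of the 28 behind the calls. Of the 87 named genes called in the full comparison, only Rag2 and Igfbp4 were called there, and 27 had a difference more than 1.5 times smaller than the full one. The others did not pass there, also where no such value is given below. Among these, Cd93 differed by 2.66 (adjusted p = 0.0746), Alpl by 2.08 (0.136), Myb by 1.16 (0.135) and Lef1 by 1.75 (0.141). Il7r differed by 1.99 (0.114), Vpreb3 by 1.67 (0.233) and Dusp6 by 2.40 (0.15). In bulk tissue, fewer cells of a type and less RNA per cell cannot be told apart.

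Rag2, the partner of Rag1 in the recombinase, and most of the precursor B cell genes tested were higher in the high lymphomas. Of 13 precursor B markers tested, none of them part of the score, 11 were higher: Rag2, Dntt, Igll1, Vpreb3, Il7r, Sox4, Lef1, Myb, Cd93, Enpep and Bst1. Flt3 and Ly6d did not pass and had differences below 0, of -0.79 ± 0.44 (adjusted p = 0.245) and -1.82 ± 0.65 (adjusted p = 0.0706), and Kit and Erg were below the filter on low levels. Rag2 and Dntt read below the array median in every low lymphoma, so they passed that filter only through lymphomas outside the low group. The count of 11 among 13 therefore depends in part on the filter. The mean centred level of the 13 markers was 0.365 to 2.22 in the high lymphomas and -1.345 to 0.327 in the low ones, so the groups did not overlap. The pan-B markers Cd79a, Cd79b, Pax5, Ebf1, Blnk and Cd22 gave 0 calls among 6, with a median difference of 0.49. Their mean centred level was 0.09 to 0.725 in the high lymphomas and -3.27 to 0.48 in the low ones. All 8 high lymphomas lay above the low median. Of the low lymphomas 13 lay below every high one and 7 above the lowest high one. Ebf1 differed by 1.85 ± 0.625 (adjusted p = 0.0571), so the pan-B level also leaned higher in the high lymphomas. The median difference of all genes tested was 0.04.

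Rag2 read 8.61 in D48, 5.16 in D56, 8.62 in D57, 6.62 in D62, 6.63 in D64, 5.44 in D70, 7.32 in D72 and 10.30 in D161. The 16 low lymphomas of the first set read 3.75 to 4.83 with a median of 4.2, and the 4 of the second set read 4.59, 4.71, 5.04 and 5.11. Every high lymphoma lay above the low ones of its set, with D56 and D70 closest to them. The difference was 3.05 ± 0.35 (SE; adjusted p = 1.25e-05), or 8.30-fold, and it was 2.99 ± 0.53 (adjusted p = 0.0486) against the low lymphomas within the macrophage range.

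Dntt, the terminal transferase, read 6.27 in D48, 6.09 in D56, 6.29 in D57, 8.73 in D62, 5.20 in D64, 8.30 in D70, 4.86 in D72 and 11.82 in D161. The low lymphomas read 4.48 to 5.35 with a median of 4.85 in the first set and 5.46 to 5.70 in the second. The rise sat in 6 of the 8: D64 and D72 lay within the low range. The difference was 2.31 ± 0.43 (adjusted p = 0.00197).

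Of 10 genes of recombination and end joining tested, 4 were higher (40%), Rag2, Dntt, Xrcc6 and Hmgb2, and 0 were lower, with a median difference of 0.33. Rag2 and Dntt passed the filter only through lymphomas outside the low group, so this share depends in part on the filter. HMGB2 is a DNA bending protein and Xrcc6 encodes the Ku subunit Ku70. Hmgb2 differed by 0.35 ± 0.09 (adjusted p = 0.0124). Xrcc6 differed by 1.03 ± 0.33 (adjusted p = 0.0456), and that call was lost without any 1 of 19 single lymphomas, with an adjusted p of 0.133 without D161. It differed by 0.65 within the macrophage range (adjusted p = 0.391).

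Igll1, which encodes lambda 5, read 10.25 in D48, 10.37 in D56, 8.37 in D57, 12.50 in D62, 8.34 in D64, 6.93 in D70, 8.24 in D72 and 13.46 in D161 on the brighter of its 2 probe sets. The low lymphomas read 5.62 to 7.25 with a median of 6.11 in the first set and 6.16 to 6.60 in the second. The high lymphomas stood above them except D70, which lay within their range. The difference was 3.72 ± 0.47 (adjusted p = 6.16e-05), or 13.2-fold, and 3.70 within the macrophage range (adjusted p = 0.0505). The second Igll1 probe set differed by -0.25 ± 0.19, so the probe sets disagree and the call rests on the first.

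Of 12 surrogate light chain and pre-B receptor genes tested, 2 were higher (16.7%), Igll1 and Vpreb3, and 0 were lower, with a median difference of 0.38. Vpreb3, a relative of Vpreb1, differed by 2.44 ± 0.72 (adjusted p = 0.0319). Its centred level was 0.84 to 1.71 in the high lymphomas and -4.56 to 1.33 in the low ones, so that the high lymphomas were uniform and the low ones spread. The Vpreb3 call was lost without D161 (adjusted p = 0.0612), and also without D48, D57, D62, D64 or D72. Btk and Blnk, which carry the receptor's signal, had differences of 0.37 (adjusted p = 0.075) and 0.57 (adjusted p = 0.0779).

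**Figure D2:**
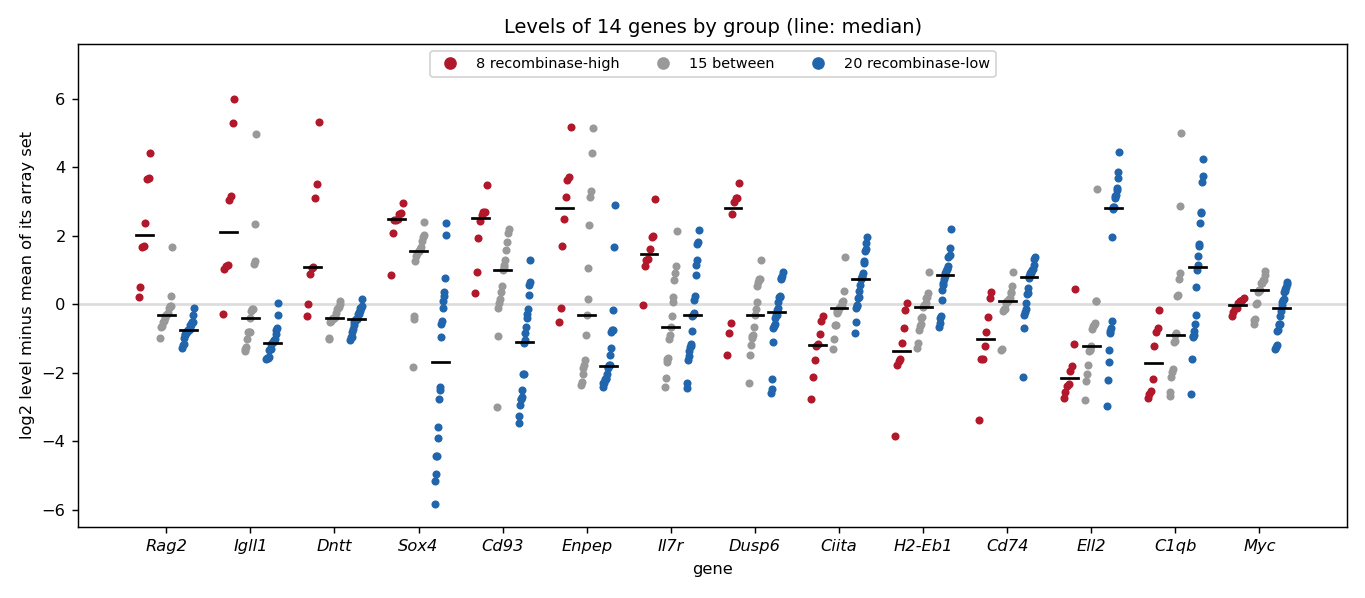
Log2 level minus the lymphoma mean of the same array set for 14 genes, with 1 point per lymphoma (8 recombinase-high in red, 15 between in grey, 20 recombinase-low in blue) and the median as a line. The high lymphomas lie above every low one for Rag2, overlap them for every other gene drawn, and split into 2 clusters for Dusp6; the median Myc is -0.03 in the high and -0.11 in the low lymphomas.

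Among 13 progenitor transcription factors tested, 3 were higher (23.1%) and 0 lower. Sox4, which supports the survival of precursor B cells, read 11.30 in D48, 11.32 in D56, 11.50 in D57, 11.34 in D62, 11.81 in D64, 9.71 in D70, 10.93 in D72 and 12.53 in D161. The low lymphomas read 3.02 to 11.21 with a median of 6.40 in the first set and 4.92, 9.30, 9.78 and 9.99 in the second. D70 was the lowest of the high lymphomas, and the highest low ones overlapped them. The difference was the largest of the genes called higher, 4.17 ± 0.88 (adjusted p = 0.00409), and was 2.53 ± 0.88 within the macrophage range (adjusted p = 0.161). The other Sox4 probe sets differed by 0.49 to 3.31, so that rank rests on the brightest probe set. The 15 lymphomas between had a median centred Sox4 of 1.54, nearer the high median of 2.48 than the low median of -1.69.

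Lef1, a WNT pathway factor of pro-B cells, differed by 1.97 ± 0.44 (adjusted p = 0.00651), from 5.35 in D64 and 6.26 in D70 to 8.77 in D57. Myb, required for early B lymphopoiesis, differed by 1.74 ± 0.38 (adjusted p = 0.00507), and its 7 high lymphomas of the first set read 11.10 to 11.93 against 8.09 to 11.24 in the low ones. Unlike Sox4, Lef1 had a between median (-0.47) close to that of the low lymphomas (-0.58).

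Among 20 B lineage transcription factors, Tcf3 was higher (5%, against 6.25% of all genes). Pou2f2, Spib, Id2 and Irf8 were lower (20%, against 3.63%), and the list's median difference was 0.44. Tcf3, which encodes the E proteins E12 and E47, differed by 1.02 ± 0.20 (adjusted p = 0.00315), and Id2, whose product blocks E proteins from binding DNA, by -1.55 ± 0.47 (adjusted p = 0.0351). Tcf3 read 10.85 to 11.75 in the high lymphomas of the first set and 9.45 to 11.18 in the low ones. Pou2f2, the Oct-2 gene, differed by -1.20 ± 0.30 and Spib, an ETS factor gene, by -1.12 ± 0.30 (adjusted p = 0.0133 and 0.0212). Id2 lost its call without 7 single lymphomas (adjusted p = 0.0807 without D161) and Spib without 4 (0.0632 without D161). Within the macrophage range Id2 differed by -0.92 (adjusted p = 0.319) and Pou2f2 by -0.77 (0.274).

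Il7r, the receptor for the growth factor of precursor B cells, was the 1 gene called among 15 early growth receptors and signals (6.67%). That share is near the 6.25% of all genes called higher, so the call describes Il7r and not its list. Its centred level was -0.02 to 3.08 in the high lymphomas and -2.44 to 2.17 in the low ones, so the groups overlapped broadly. The difference was 1.82 ± 0.52 (adjusted p = 0.028), and the call was lost without D161 (adjusted p = 0.102), D56, D57 or D62. In the first array set alone the adjusted p was 0.102. Kit read 4.12 to 4.38 in the 7 high lymphomas of the first set and 4.29 to 4.75 in the low ones, below the filter.

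Among 12 immature B cell surface genes, 4 were higher (33.3%), Enpep, Cd93, Alpl and Bst1, and 0 were lower, with a median difference of 0.25. Enpep, the aminopeptidase known as BP-1, read 7.43 in D48, 8.85 in D56, 9.35 in D57, 10.91 in D62, 8.21 in D64, 5.62 in D70, 9.45 in D72 and 4.75 in D161. The low lymphomas read 3.31 to 8.63 with a median of 3.78 in the first set and 4.01, 4.47, 4.53 and 4.54 in the second. D161, highest for Rag1, was close to the low lymphomas of its set here, and D70 was second lowest. The difference was 3.66 ± 0.64 (adjusted p = 0.00117) and 2.53 ± 0.84 within the macrophage range (adjusted p = 0.145).

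Cd93, the AA4.1 antigen of early B cells, differed by 3.46 ± 0.55 (adjusted p = 5e-04), with centred levels of 0.33 to 3.48 in the high lymphomas and -3.47 to 1.28 in the low ones. Alpl, an alkaline phosphatase, read 8.90 to 9.75 in the high lymphomas of the first set except D70, at 6.86, and differed by 2.97 ± 0.59 (adjusted p = 0.00315). Bst1, the BP-3 antigen, was highest in D56 (8.78) and D161 (8.53) and lay between 5.71 and 6.76 in the other 6. Its difference of 0.87 ± 0.27 (adjusted p = 0.0427) lost its call without any 1 of 16 single lymphomas (0.132 without D161).

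The other genes with the largest differences had more varied roles. Igfbp4, a binding protein for insulin-like growth factors, read 11.65 in D48, 10.75 in D56, 11.47 in D57, 11.06 in D62, 7.01 in D64, 8.77 in D70, 11.25 in D72 and 11.93 in D161. Its difference was 2.93 ± 0.45 (adjusted p = 0.000337) and 3.43 ± 0.56 within the macrophage range (adjusted p = 0.0422), the largest of the 8 genes higher there. D64 alone read at or under the median of the low lymphomas, 7.34.

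Cplx2, a complexin of vesicle fusion, differed by 2.85 ± 0.39 (adjusted p = 0.000102), and Eps8, an actin regulator, by 3.09 ± 0.51 (adjusted p = 0.000682). Pde2a, a cyclic nucleotide phosphodiesterase, differed by 2.84 and Lgals9, galectin 9, by 2.62. Cnn3, Ptgr1 and Uchl1 completed the largest differences, at 2.75, 2.53 and 2.49, and every high lymphoma had a centred Cnn3 between 0.93 and 1.86 while the low ones fell to -5.82. Uchl1 differed by 1.61 within the macrophage range (adjusted p = 0.333). Tmem119 was split: it read 10.44 in D48, 9.18 in D56, 11.24 in D62 and 10.16 in D161, and 3.82 to 5.30 in D57, D64, D70 and D72. Its difference of 2.81 ± 0.72 (adjusted p = 0.0159) was not called without D161 (adjusted p = 0.0674).

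Some negative feedback genes of the Ras-ERK pathway divided the high lymphomas. Of 17 Ras-ERK response genes tested, 5 were higher (29.4%), Dusp6, Spred1, Spred2, Spry1 and Etv4, and 0 were lower, while the list's median difference was 0.03. Dusp6, an ERK phosphatase, read 10.998 in D48, 10.88 in D57, 11.43 in D62, 10.55 in D72 and 11.85 in D161. It read 7.05 in D56, 6.43 in D64 and 7.37 in D70, below the median of 7.58 in the low lymphomas of the first set. The same 5 lymphomas were highest for Spred1, an inhibitor of RAF activation, at 8.03 to 9.07 against 5.05, 6.06 and 6.63 in the other 3. They were also highest for Spred2, at 9.03 to 10.23 against 6.32 to 7.69, and for Etv4, an ETS factor gene, at 6.64 to 7.24 against 5.46 to 5.68. In the second set the low lymphomas read 6.36 to 6.94 for Etv4, so D161, at 6.90, was within their range, whereas for Spred1 they read 6.63 to 7.36 and for Spred2 7.88 to 8.25.

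The differences over all 8 were 1.97 ± 0.57 for Dusp6 (adjusted p = 0.0301), 1.4 ± 0.32 for Spred1 (0.00697), 1.53 ± 0.39 for Spred2 (0.0161) and 0.60 ± 0.17 for Etv4 (0.0271). Spry1, outside the naming rule, differed by 0.72 ± 0.23 (0.0421). Its call was lost without any 1 of 11 single lymphomas (0.128 without D161). Another, dimmer Spred2 probe set differed by 0.06 ± 0.09, so the Spred2 probe sets disagree and the call rests on the brighter. In the first array set alone Spred1 was called (adjusted p = 0.0397), and Dusp6 (0.0953), Spred2 (0.0592), Etv4 (0.0514) and Spry1 (0.134) were not. The Dusp6 call was lost without any 1 of the 5 lymphomas with high levels, with an adjusted p of 0.1 without D161, and the Etv4 call without D48, D57, D62 or D72 (0.0794 without D48). The highest low lymphoma read 8.84 for Dusp6 in the first set and 9.54 in the second. The division of the high lymphomas was seen in the values and was not tested.

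Some S phase and mitotic genes were higher by small amounts. Of 21 S phase genes 4 were higher (19%), Rrm2, Mcm7, Gins1 and Pcna, and of 22 genes of G2 and mitosis 6 were higher (27.3%), with 0 lower in either list. Without D161 the calls of Kif20a, Cenpa, Nusap1 and Pcna were lost, and each was lost without others too (highest adjusted p 0.0773 without D56 for Kif20a, 0.0753 without D62 for Cenpa, 0.0801 and 0.0603 without D161 for Nusap1 and Pcna). The 22 mitotic differences were all above 0, with a median of 0.36, and 20 of the 21 S phase differences were above 0, with a median of 0.31, where 56% of all genes tested were above 0. Rrm2, the small subunit of ribonucleotide reductase, read 11.71 to 11.97 in the 8 high lymphomas and 10.76 to 11.57 in the low ones of the first set. Over both sets, with levels centred, the Rrm2 groups overlapped. Rrm2 differed by 0.50 ± 0.10 (adjusted p = 0.00315) and by 0.53 within the macrophage range, where Mcm7 differed by 0.29 (adjusted p = 0.15). Cdk1, the mitotic kinase, differed by 0.51 ± 0.13 (adjusted p = 0.0179).

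Of 18 G1 regulators 3 were higher (16.7%, against 6.25% of all genes) and 0 lower. The 3 were Ccnd3, higher by 0.97 ± 0.30, Rbl1, by 0.48 ± 0.13, and Cdk4, by 0.35 ± 0.10. Ccnd3 encodes cyclin D3, which precursor B cells need to divide, and its call was lost without any 1 of 14 single lymphomas (adjusted p = 0.121 without D161). The Rbl1 and Cdk4 calls were also lost without D161 (0.0603 and 0.0782). The list was not uniform: 13 of its 18 differences were above 0, and Ccnd2, which encodes cyclin D2, had a difference of -1.99 ± 0.66 that did not pass (adjusted p = 0.0525), with all 7 of its probe sets below 0, from -0.77 to -2.26.

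Myc itself, carried by the transgene, differed by 0.18 ± 0.23 (adjusted p = 0.634), and its level was 10.11 to 10.65 in the high lymphomas of the first set and 9.15 to 11.12 in the low ones. Of 10 MYC network genes 0 were called, with a median difference of 0.13. Of 23 ribosome biogenesis genes 1 was higher, Ncl (4.35%, against 6.25% of all genes). Cdkn2a, which encodes p16 and p19ARF, read 6.63 to 8.41 in 7 of the high lymphomas and 11.35 in D62. Its difference was 0.27 ± 0.88 (adjusted p = 0.87), and of 15 p53 targets 0 were called.

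In the BCL2 family Bok was higher and Mcl1 lower among 11 genes (9.09% each way, against 6.25% and 3.63% of all genes). Bok, a BAX relative, read 7.66 in D48, 6.99 in D57, 8.68 in D62 and 9.47 in D161, and 5.10 to 5.72 in the other 4. The low lymphomas of the first set read 4.93 to 5.74, so the difference of 1.56 ± 0.32 (adjusted p = 0.00363) sat in those 4. Mcl1, a survival gene, differed by -0.47 ± 0.13 (adjusted p = 0.0255), and its call was lost without D161 (0.0686) or D57; within the macrophage range it differed by -0.21 (0.369).

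**Figure D3:**
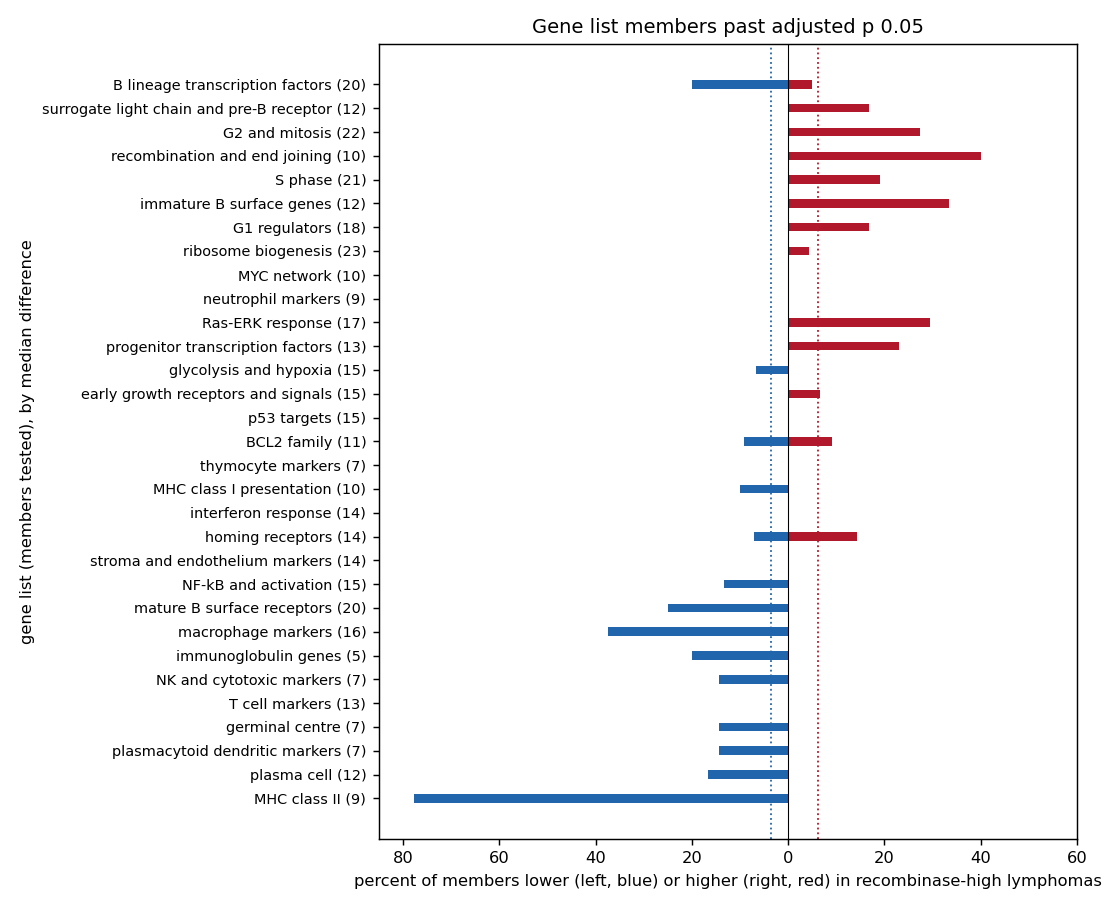
Percent of tested members of 31 gene lists that were higher (red, right) or lower (blue, left) in the 8 recombinase-high than in the 20 recombinase-low lymphomas at adjusted p under 0.05; dotted lines mark 6.25% and 3.63%, the percent among all 7732 genes, and lists stand in the order of their median difference. MHC class II stands out to the left at 77.8% and recombination and end joining to the right at 40%.

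MHC class II genes were lower in the high lymphomas. Of 9 tested, 7 were lower (77.8%) and 0 higher, with a median difference of -1.63 and every difference below 0. Ciita, the coactivator gene, read 5.87 in D48, 5.83 in D56, 4.92 in D57, 4.26 in D62, 6.18 in D64, 6.69 in D70, 6.56 in D72 and 5.54 in D161. The low lymphomas read 6.20 to 8.82 with a median of 7.82 in the first set and 6.65, 7.34, 7.37 and 9.12 in the second. The 8 high lymphomas were all below the low median of their set, and D70 and D72 overlapped the low range. The difference was -2.00 ± 0.32 (adjusted p = 0.000463), a 4.01-fold lower level.

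H2-Eb1 encodes the beta chain of the class II molecule I-E. It read 10.45 in D48, 9.37 in D56, 9.49 in D57, 7.31 in D62, 10.03 in D64, 11.18 in D70, 10.98 in D72 and 9.54 in D161. The low lymphomas read 10.59 to 12.80 in the first set and 10.49, 11.71, 12.17 and 13.32 in the second. D62 was far below the rest, and D70 and D72 reached the low range. The difference was -2.08 ± 0.37 (adjusted p = 0.00153). H2-Aa differed by -1.63 ± 0.31 (adjusted p = 0.00206) and H2-DMa, which edits the peptide load, by -2.01 ± 0.38 (adjusted p = 0.00225).

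Cd74, the invariant chain, differed by -1.49 ± 0.39 (adjusted p = 0.0173), and its call was lost without D161 (0.0603) or D62, and in the first array set alone (0.0718). H2-DMb2, outside the naming rule and picked after its values were seen, differed by -1.99 ± 0.42 (adjusted p = 0.00469). The mean centred level of the 9 genes was -2.35 in D62, -1.50 in D57, -1.30 in D56, -1.24 in D161, -0.69 in D64, -0.50 in D48, -0.10 in D70 and -0.05 in D72. It was -0.82 to 1.76 in the low lymphomas, 14 of which exceeded every high lymphoma.

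Macrophages also make MHC class II. Against the 8 low lymphomas within the macrophage range, Ciita differed by -1.64 ± 0.34 (adjusted p = 0.0615), H2-Eb1 by -1.73 ± 0.46 (0.0862), H2-DMa by -1.64 ± 0.42 (0.0822), H2-Aa by -1.44 ± 0.41 (0.103) and Cd74 by -1.29 ± 0.46 (0.168). None of these passed there, and each kept its sign. With macrophage and T cell scores as terms in the fit of all 28, Ciita differed by -1.43 (adjusted p = 0.0122) and H2-Eb1 by -1.48 (adjusted p = 0.0277), and H2-DMa and H2-Aa also passed (0.0321 and 0.0368). Cd74 at -1.15 (0.204) and H2-DMb2 at -1.18 (0.146) did not pass there, and H2-DMb2 was -1.31 within the macrophage range (0.187).

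**Figure D4:**
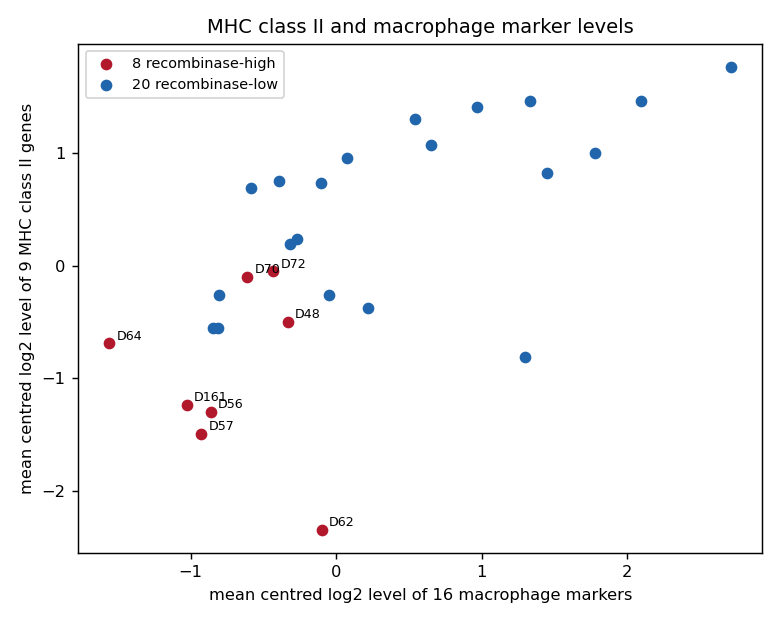
Mean centred log2 level of 9 MHC class II genes (y) against that of 16 macrophage markers (x), with 1 point per lymphoma (8 recombinase-high in red with names, 20 recombinase-low in blue). The high lymphomas lie between -1.56 and -0.10 on the macrophage axis and between -2.35 and -0.05 on the MHC class II axis; 12 low lymphomas lie to their right.

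Of 20 mature B cell surface receptors, 5 were lower (25%), Tlr1, Ptpn6, Cd180, Il4ra and Tnfrsf13b, and 0 were higher, with a median difference of -0.71. Ptpn6, the phosphatase SHP-1 that damps B cell receptor signals, differed by -0.97 ± 0.20 (adjusted p = 0.00363), and Il4ra, the interleukin 4 receptor, by -0.89 ± 0.23 (adjusted p = 0.0184). Tlr1, a Toll-like receptor, differed by -2.01 ± 0.60 (adjusted p = 0.0328) and lost its call without D161 (0.102) and 5 other single lymphomas. Within the macrophage range Tlr1 differed by -0.99 (adjusted p = 0.496), Il4ra by -0.48 (0.329), Cd180 by -0.49 (0.304) and Ptpn6 by -0.72 (0.14). Ms4a1, the CD20 gene, read 6.88 in D62, 7.91 in D161, 8.32 in D48, 9.08 in D57, 9.68 in D56, 10.93 in D72, 11.28 in D64 and 11.69 in D70. The low lymphomas ran from 6.33 to 13.28, and the difference of -2.10 ± 0.76 did not pass (adjusted p = 0.0743).

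The genes of later B cell stages were lower in a few members each. Ell2, an elongation factor of secreting cells, had a median of 9.39 and a range of 3.57 to 11.002 in the low lymphomas of the first set. It read 3.82 to 4.74 in 6 high lymphomas, 6.34 in D161 and 6.99 in D70. The difference was -3.21 ± 0.87 (adjusted p = 0.0212), and -1.80 ± 0.92 within the macrophage range (adjusted p = 0.347). Of 12 plasma cell genes 2 were lower, Ell2 and Xbp1 (16.7%, against 3.63% of all genes). Of 7 germinal centre genes 1 was lower, Basp1 (14.3%).

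Xbp1, a secretory stress factor, differed by -1.02 ± 0.32 (adjusted p = 0.0408) and lost its call without any 1 of 13 single lymphomas (0.0863 without D57). Basp1 differed by -3.03 ± 0.87 (adjusted p = 0.0283), with a low median near that of all lymphomas (-0.10, centred) and a low maximum of 4.66, and its call was lost without D48, D62, D72 or D161 (0.0569 without D161). Within the macrophage range Basp1 differed by -1.41 (adjusted p = 0.351) and Xbp1 by -0.62 (0.308), and with the covariates Basp1 differed by -1.02 (0.551). Of 5 immunoglobulin genes 1 was lower (20%, against 3.63% of all genes), Igk, by -0.83 ± 0.23 (adjusted p = 0.0251, and 0.0803 without D161).

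The largest decrease was that of LOC664787, at -3.42 ± 0.67 (adjusted p = 0.00285). Plek, pleckstrin, a protein kinase C substrate of blood cells, differed by -3.04 ± 0.51 (adjusted p = 0.000882) and by -2.13 ± 0.66 within the macrophage range (adjusted p = 0.124). Rab30, a Golgi small GTPase gene, differed by -2.47, Bmpr1a, a BMP receptor gene, by -2.23 and Mdfic by -2.18, and in each the between median was closer to the high than to the low median. Birc3, an NF-kB target, differed by -0.81 ± 0.16 (adjusted p = 0.00285). With Traf1 it made 2 lower of 15 NF-kB and activation genes (13.3%, against 3.63% of all genes). The Traf1 call was lost without any 1 of 18 single lymphomas (adjusted p = 0.0896 without D64). Within the macrophage range LOC664787 differed by -2.06 (adjusted p = 0.0969), Bmpr1a by -0.98 (0.403) and Traf1 by -0.43 (0.365).

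Markers of other cells were lower or not called. Of 16 macrophage markers 6 were lower (37.5%), Apoe, C1qa, C1qb, C1qc, Cd68 and Ctsd, with a median difference of -0.79. C1qb, a complement subunit of tissue macrophages, read 4.42 to 7.0 in the high lymphomas and 4.55 to 11.83 in the low ones, and differed by -2.54 ± 0.71 (adjusted p = 0.0251). Its call was lost without D57, D64 or D161 (0.0697 without D161). Within the macrophage range C1qb differed by -0.64 (adjusted p = 0.505), C1qc by -0.37 (0.617), Cd68 by -0.96 (0.422), Ctsl by -1.35 (0.267) and Ccl5 by -0.72 (0.384). C1qb, C1qc and Cd68 are among the 16 markers that set this range, so smaller differences of theirs follow in part from that choice. Ctsl and Ccl5 are not among the 16. Apoe differed by -2.76 ± 0.55 (adjusted p = 0.00315), and the cathepsins Ctsh and Ctsl by -2.58 and -2.21. Ctsh is in none of the marker lists of other cells. It differed by -2.04 within the macrophage range (adjusted p = 0.109) and by -1.92 with macrophage and T cell scores as covariates (0.0253).

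The 13 T cell markers gave 0 calls with every difference below 0 and a median of -0.84, and their mean centred level was -1.09 to 1.19 in the high and -1.16 to 2.10 in the low lymphomas. Thymocyte, neutrophil and stroma markers also gave 0 calls. Of 7 NK markers 1 was lower (14.3%, against 3.63% of all genes), Ccl5, with 11 low lymphomas above every high one in the mean level. Of the erythroid, megakaryocyte and adipocyte markers 2 each were tested, too few to describe those cells, with 0 calls. The 2 adipocyte markers had a median difference of -1.63, and 14 low lymphomas exceeded every high one in their mean level. The part of other cells in the lower genes was not tested beyond the values above.

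Genes called higher were unevenly spread over the chromosomes. On chromosome 12, 46 of 264 genes tested were higher (17.4%, against 6.25% of all genes), and the median centred level of its genes differed by 0.185 between the groups. An exact permutation test of that difference over the 28 lymphomas, two-sided, gave p = 0.00146, or 0.0292 adjusted over 20 chromosomes. The test was added after the data were seen. It compared plain group means of centred levels, not a limma fit, and exchanged lymphomas between groups without regard to array set. The chromosome median was 0.425 in D62, 0.34 in D48 and 0.304 in D72, and at most 0.0808 in each of the other 40 lymphomas. The other 5 high lymphomas differed from the low by 0.053.

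D48, D62 and D72 are singled out by this median itself, so their levels are a description. Frmd6 and Dnmt3a, the DNA methyltransferase gene, lie on that chromosome and were picked after their values were seen. They differed by 1.41 ± 0.37 (adjusted p = 0.0175) and 1.01 ± 0.23 (adjusted p = 0.00668), and Frmd6 was not called without D161 (0.0865) or in the first array set alone (0.0981). The chromosome difference was not called without D72 (adjusted p = 0.053) or D48 (0.0513).

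Chromosome 14 differed by 0.127 (adjusted p = 0.0424) and chromosome 18 by 0.134 (adjusted p = 0.0408), by the same exact test. Chromosome 14 was not called without D161 (0.14) or D56 (0.139), nor without any 1 of 13 others, and chromosome 18 not without D56 (0.124), D72 (0.119), D48 (0.0734) or any 1 of 8 others. These are levels of RNA, and DNA copy number was not measured.

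**Figure D5:**
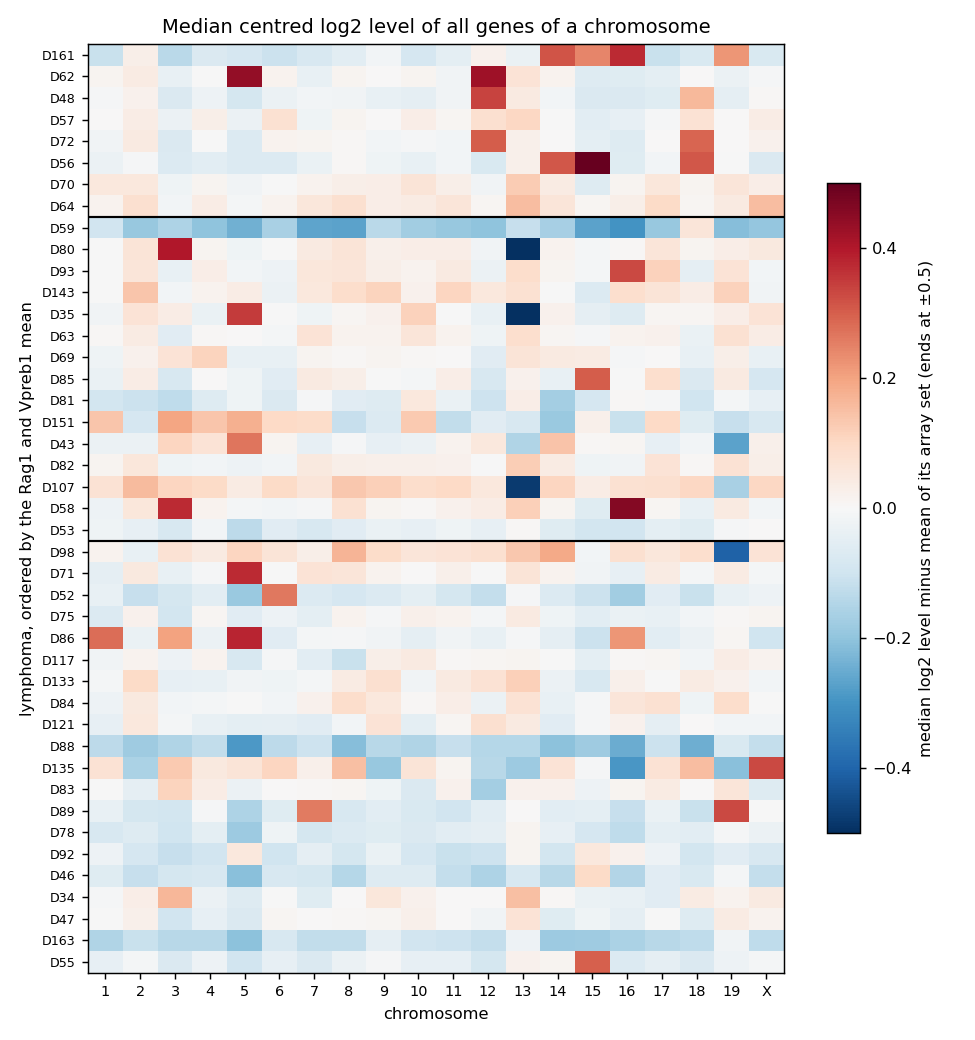
Median centred log2 level of the tested genes of each chromosome (columns) in 43 lymphomas (rows, ordered by the Rag1 and Vpreb1 mean), with black lines between the 8 recombinase-high, 15 between and 20 recombinase-low lymphomas; the colour scale ends at 0.5 in either direction. Chromosome 12 is raised in D62, D48 and D72 (0.425, 0.34 and 0.304) and in no lymphoma below the upper line.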

How the data were processed

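Expression was measured on Affymetrix mouse 430A 2.0 arrays in 43 lymphomas and 1 spleen. The authors deposited log2 values made with RMA in the affy package, per the submitters' processing notes; versions are not stated, and no scanner files were used here. The number of arrays limits precision. Of 22690 probe sets, 64 were controls; 20380 had 1 gene symbol, 691 several and 1555 none. Each of 12393 genes was read from its probe set with the highest mean over lymphomas. Genes above the array median in at least 4 lymphomas were kept, and of the 7734 kept, 7732 were tested after Rag1 and Vpreb1 were set aside. A gene below the median in all low lymphomas could pass through the high ones, which favours calls of higher genes. The probe gene table follows old platform annotation, with 20351 probe sets matched to RefSeq by gene ID and 0 renamed.

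The 8 high and 20 low lymphomas were fitted with the array set in limma 3.58.1 (R 4.3.3, intensity trend, 25 residual degrees of freedom). The array set is known from title numbers and level, not as a scan or extraction batch. On simulated data with 200 changed genes, changes of 0.5, 1 and 2 log2 units were called in 49%, 85% and 98%. Of the calls, 6.67%, 7.61% and 4.39% were of unchanged genes. Simulated noise was independent between genes, so genes that vary together were not covered. The members and the 34 gene lists were chosen with earlier results of these data known. Named genes were the 15 largest differences in each direction past the threshold, up to 4 members per list by the size of limma's statistic, and a set of single genes; genes outside this rule are marked. Fits against low lymphomas within the macrophage range, the chromosome tests and their alternatives were added after seeing the data.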

Additional observations from a re-analysis of the deposited data

Results flagged for a closer look

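In the following values 1 high lymphoma lay farther from the other 7 than Dixon's 95% limit allows; chance alone picks out about 1 in 20 groups, and 15 of 115 groups examined were picked out. All are centred log2 levels. D70 stood apart in Sox4 (0.858, nearest 2.08), Alpl (-0.595, nearest 1.44), Slpi (-0.229, nearest -1.22), Id2 (0.371, nearest -0.753), Cdk4 (-0.176, nearest 0.216) and Dnmt3a (-0.312, nearest 0.597), each time on the side of the low lymphomas. D62 stood apart in H2-Eb1 (-3.84, nearest -1.78), H2-Aa (-3.3, nearest -1.5), Cdkn2a (3.67, nearest 0.731) and Flt3 (0.263, nearest -0.331). Its median level of chromosome 5 was 0.44, against -0.011 in the nearest high lymphoma. D64 stood apart in Ccl5 (-2.18, nearest -1.29). In D161, the only high lymphoma of the second array set, the median levels of chromosomes 3, 16 and 19 were -0.136, 0.372 and 0.22, against -0.0723, 0.0301 and 0.0615 in the nearest.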

How the results depend on the processing

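All 483 genes called higher and all 281 called lower kept their sign wherever tested, except 1 of 456 higher genes under the mean of a gene's probe sets. Every refit draws on lymphomas in which the genes were called, so kept signs are no independent support. The counts moved by over 1.5 times under these settings, given as higher and lower. They were 93 and 147 with no array set, 236 and 131 in the first set alone, 944 and 727 with array weights, and 281 and 125 for 8 against all other 35. They were 217 and 167 with groups ranked by Vpreb1 alone, 90 and 48 with T cell and macrophage scores as covariates, and 8 and 3 within the macrophage range. Ranking by Rag1 alone left 155 lower, and the slope over 43 lymphomas gave 429 lower. Calls among members of all lists, 37 higher and 33 lower, became 14 and 20, 21 and 14, and 65 and 79 under the first 3 of those settings. Vpreb1 alone gave 22 and 21, the covariates 13 and 5, and the macrophage range 2 and 0; there limma gave 1292 genes an unadjusted p under 0.05. Lower members were 50 with all 43 lymphomas, 16 for 8 against 35 and 16 for Rag1 alone. In the first set alone 6 genes had every high above every low. Without single lymphomas the counts were 201 to 586 higher and 113 to 378 lower, and 19 to 43 and 11 to 45 among list members. Chromosome 12 differed by 0.144 to 0.216, chromosome 14 by 0.0952 to 0.142 and chromosome 18 by 0.104 to 0.159. The low lymphomas D55, D92 and D121 were also left out together, with D59 outside both groups, by a choice whose criterion is not given here. Chromosomes 14 and 18 then differed by 0.125 and 0.131 (adjusted p = 0.0737 for both, exact test) and chromosome 12 by 0.187 (0.0379). Of 87 named genes called, 48 kept the call without every single lymphoma, and 38 lost it without D161. Myc turned to -0.0512 for 8 against 35, -0.247 with the covariates and -0.0461 within the macrophage range, and Cdkn2a ranged from -0.208 without D62 to 0.465 without D98 when single lymphomas were left out, and was 0.784 within the macrophage range and 1.38 with groups ranked by Rag1 alone. The cause of these changes was not tested. No paired analysis was possible because the sources used here name no pairs of lymphomas.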

Other observations

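The 15 lymphomas between stood with the high group for some genes and with the low group for others. Their median centred level was 1.01 for Alpl, 0.99 for Cd93, 1.16 for Cplx2 and 1.33 for Cnn3, nearer the high medians of 2.13, 2.51, 2.02 and 1.25 than the low medians of -1.39, -1.09, -1.45 and -1.41. For Igll1, Dntt, Dusp6 and Bok it was -0.41, -0.39, -0.31 and -0.32, against low medians of -1.12, -0.43, -0.24 and -0.35. For Ell2 and Plek it was -1.23 and -1.15, nearer the high medians of -2.15 and -1.55 than the low medians of 2.80 and 1.59.

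Irs1, an adaptor of insulin and growth factor receptors picked after its values were seen, read 8.59 in D48, 9.30 in D57 and 9.27 in D72 and 4.32 to 6.36 in the other 5 high lymphomas. Its difference was 1.98 ± 0.49 (limma, adjusted p = 0.0131, and 0.0412 without D57). The spleen array, in the second set, read 5.03 for Rag1 and 5.97 for Vpreb1, within the 3.78 to 12.61 and 5.19 to 13.16 of that set's 7 lymphomas. Xist was above the Y-linked gene Eif2s3y in 4 of 8 high, 12 of 20 low and 10 of 15 between lymphomas.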
